A study of Homo sapiens with 14 samples.

Results

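POLR3A regions that were found under both treatments and that no progesterone receptor (PR) region overlapped numbered 2220, of 47904 POLR3A regions listed after progesterone (4.63%). POLR3A is the largest subunit of RNA polymerase III (Pol III), and T47D is a breast cancer cell line that carries oestrogen receptor and PR. Chromatin immunoprecipitation with sequencing had been run on POLR3A and on PR after 1 h with progesterone (P4) or with its vehicle, ethanol. The labels name 14 libraries (3 replicates for every pairing of antibody and treatment, and a pooled input for either treatment), and the deposited values used here are 4 lists of enriched regions, 1 per antibody and treatment. The regions were chosen by the deposited lists themselves: a POLR3A region of the P4 list on chromosomes 1 to 22 or X entered when it overlapped a POLR3A region of the vehicle list by at least 1 bp and overlapped no region of the PR vehicle list and none of the PR P4 list. They are called PR-free shared regions below. Their presence under both treatments and their lack of PR are therefore the rule and not a result. Replicates of a group share 1 list, so no difference given here could be set against the spread between replicates, no test was run, and the 95% Wilson intervals hold only the error of counting regions or genes. A single cell line and a single time after P4 were studied, and region lists give no expression with which to check the labelled cell type.

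Pol III makes short untranslated RNAs: the transfer RNAs (tRNAs), 5S ribosomal RNA, the U6 spliceosomal RNA, 7SK, 7SL, the Y RNAs and a few others. It reaches these genes through several kinds of promoter. The 5S genes hold an internal element read by TFIIIA, the tRNA genes hold internal A and B boxes bound by TFIIIC, and genes of the U6 type have upstream elements bound by SNAPc. In all of them TFIIIB, which contains the TATA-binding protein, recruits the polymerase. PR is a nuclear receptor that binds progesterone and DNA, and PR regions were listed here under vehicle as well as after P4. Supply of tRNA is a known output of Pol III in growing tumour cells.

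The sequences below are shown because tRNA genes carry the strongest PR-free shared regions, and because 2 coding gene starts lie under strong members, though most members at promoters are far weaker. All are from RefSeq (GRCh38.p14), 5′ to 3′. The first 6 are whole tRNA genes that happen to lie in the RefSeq promoter window of a neighbouring gene, chosen after their values were seen. They are printed on the strand that carries the B box core, and capitals mark the B box core GTTCNANNC and, where it matched, the A box core TNGCNNAGT.
TRN-GTT4-1, asparagine, chr1:16889677-16889750, + strand: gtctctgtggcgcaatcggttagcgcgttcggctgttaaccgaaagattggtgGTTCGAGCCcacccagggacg
TRN-GTT6-1, asparagine, chr1:143735920-143735993, − strand: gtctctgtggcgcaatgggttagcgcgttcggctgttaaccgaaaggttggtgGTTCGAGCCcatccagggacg
TRT-TGT6-1, threonine, chr5:181191687-181191758, − strand: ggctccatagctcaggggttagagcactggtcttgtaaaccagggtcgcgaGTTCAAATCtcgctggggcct
TRI-AAT8-1, isoleucine, chr6:27668583-27668656, + strand: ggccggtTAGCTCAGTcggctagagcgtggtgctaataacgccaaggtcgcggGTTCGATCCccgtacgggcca
TRP-TGG3-2, proline, chr14:20684016-20684087, + strand: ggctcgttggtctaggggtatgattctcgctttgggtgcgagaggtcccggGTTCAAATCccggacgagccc
TRG-CCC2-2, glycine, chr16:636736-636806, − strand: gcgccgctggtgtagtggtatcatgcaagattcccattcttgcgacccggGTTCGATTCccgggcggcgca

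Every one of these 6 genes has the B box core, which starts between bases 51 and 54, and TRI-AAT8-1 alone has an exact match to the A box core, at bases 8 to 16. No match in the others says only that these letters are not there. The asparagine genes TRN-GTT4-1 and TRN-GTT6-1 have the same base at 71 of 74 positions. Their regions had a −log10 q of 12.3 after P4 and 16.5 under vehicle (TRN-GTT4-1), and of 69.9 and 63.6 (TRN-GTT6-1). Copies this alike can share reads, and how reads with several matches were handled is not given in the sources used here, so the difference between such copies is uncertain. The threonine gene TRT-TGT6-1 had 534 and 566, the glycine gene TRG-CCC2-2 509 and 558, the proline gene TRP-TGG3-2 395 and 396, and the isoleucine gene TRI-AAT8-1 378 and 325.

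The other 2 sequences are the windows from 250 bases before to 50 after the start of POLR3E, which encodes a subunit of Pol III, and of STRBP, which encodes a spermatid RNA-binding protein. In the POLR3E window capitals mark the 63 bases of the leucine tRNA gene TRL-AAG2-4 that lie in it, with the B box core at bases 43 to 51. In the STRBP window they mark the GC box GGGCGG at bases 148 to 153 and, on the other strand, at bases 182 to 187.
POLR3E, chr16:22297159-22297458, + strand: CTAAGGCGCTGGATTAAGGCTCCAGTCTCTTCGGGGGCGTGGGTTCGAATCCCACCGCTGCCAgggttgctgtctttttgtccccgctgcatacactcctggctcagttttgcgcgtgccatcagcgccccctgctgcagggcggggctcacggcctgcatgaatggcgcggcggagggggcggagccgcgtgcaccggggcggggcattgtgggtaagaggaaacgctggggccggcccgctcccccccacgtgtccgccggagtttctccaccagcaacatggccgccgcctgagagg
STRBP, chr9:123268537-123268836, − strand: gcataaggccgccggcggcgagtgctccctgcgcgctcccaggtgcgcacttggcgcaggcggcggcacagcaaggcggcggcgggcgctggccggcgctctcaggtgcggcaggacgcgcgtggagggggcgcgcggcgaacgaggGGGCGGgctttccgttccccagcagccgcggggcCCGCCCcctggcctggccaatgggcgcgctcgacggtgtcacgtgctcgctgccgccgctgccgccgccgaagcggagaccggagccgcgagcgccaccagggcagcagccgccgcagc

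Each list gives a fold enrichment over background and a −log10 q-value per region, which are the authors' own and serve here to describe and order the regions of 1 list. In the P4 list the PR-free shared regions ran from 1.48-fold to 82.7-fold, with a median of 3.40-fold. Their −log10 q ran from 1.35 to 584, with quartiles of 2.66, 3.61 and 5.53, so most were weak and a minority were among the strongest of the list. They were 191 to 1700 bp wide, with a median of 286 bp, and covered 0.735 Mb. The median region ranked at percentile 57.3 of the P4 list by −log10 q. POLR3A regions of both treatments that overlapped PR numbered 10130, with a median width of 382 bp, a median of 3.47-fold and a median percentile of 78.2. POLR3A regions of P4 alone that no PR region overlapped numbered 19930, with medians of 244 bp, 3.18-fold and percentile 37.1. The PR-free shared regions thus lay between the other groups in width and rank.

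Of the 12350 POLR3A regions found under both treatments, 82.0% overlapped PR: 5965 (48.3%) in both PR lists, 3580 (29.0%) in the P4 list alone and 585 (4.74%) in the vehicle list alone. The PR-free shared regions are the remaining 2220. Of the POLR3A regions of P4 alone, 15624 overlapped PR and 19930 did not. The PR P4 list holds 111515 regions and the PR vehicle list 38933, so the longer list has more regions with which to overlap.

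In the vehicle list the regions they overlapped had a median of 3.72-fold and a median −log10 q of 3.96, at percentile 57.5 of that list. All but 13 of the 2220 overlapped a single vehicle region. Members at tRNA genes and the others differed in how closely the lists placed them. At the 175 regions within 100 bp of a tRNA gene, the summits of the P4 and vehicle regions were a median of 11 bp apart (quartiles 5 and 24 bp), and 160 pairs (91.4%) were within 50 bp. At the other 2045 regions the median distance was 86 bp (quartiles 31 and 196 bp), and 723 pairs (35.4%) were within 50 bp. The P4 and vehicle regions shared a median of 86.4% of the bases they covered together at tRNA genes and 51.6% elsewhere. Across regions, Pearson's r of log2 fold between the lists was 0.96 over the 175 tRNA regions and 0.69 over the others, with Spearman's rho of 0.96 and 0.44. These are descriptions over regions of the same libraries, and every region was selected on being listed in both. The contrast in summits is not particular to PR-free regions. Among shared regions with PR, summits were a median of 7 bp apart at tRNA genes and 81 bp elsewhere, with 94.4% and 39.3% within 50 bp. The PR-free tRNA regions were also stronger, with a median −log10 q after P4 of 95.1 against 3.34 for the other members. Regions of like strength were not compared. The plot of fold in both lists shows the tRNA regions along the diagonal up to the highest values and the other regions in a cloud at low fold.

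**Figure D1:**
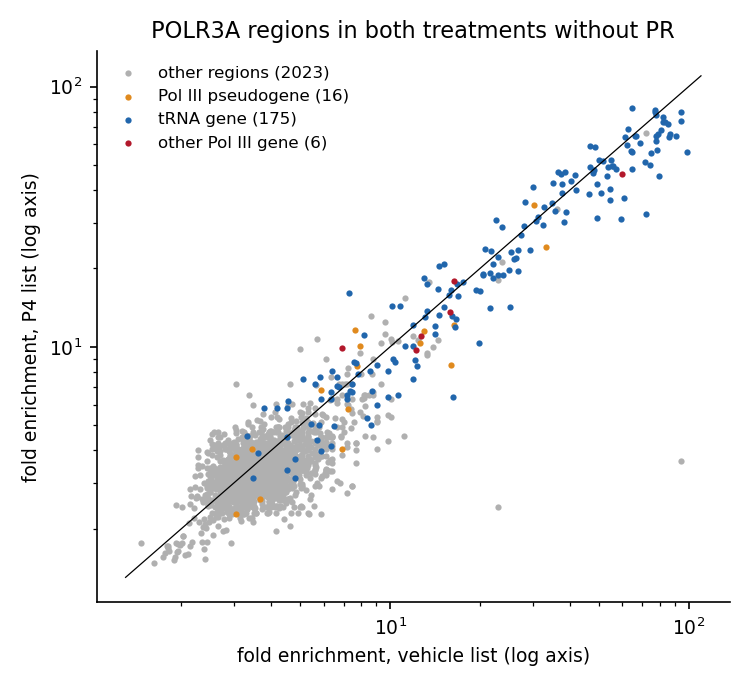
Fold enrichment of the 2220 PR-free shared regions in the POLR3A vehicle list (x axis) and P4 list (y axis), both as the authors' values on log axes, with the line of equal values. Regions at tRNA genes (175, blue) and at other Pol III genes (6, red) reach the upper right, while the 2023 regions away from the listed Pol III genes and pseudogenes lie mostly near 3-fold in both lists. The 2 grey points at the right edge of the cloud are regions beside the 7SK gene RN7SK and the U3 gene SNORD3D.

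By position, most PR-free shared regions fell at the ends or in the bodies of protein-coding genes or at no annotated gene, and these were mostly weak. A minority at tRNA genes held most of the strong ones. Regions within 100 bp of a tRNA gene numbered 175 (7.88%, interval 6.83 to 9.08%), against 0.616% of the whole POLR3A P4 list, 1.07% of the shared regions with PR and 0.0552% of the PR-free regions of P4 alone. A further 6 (0.270%) were at 5S or other listed Pol III genes, against 0.0752% of the list. Regions at pseudogenes of Pol III genes numbered 16 (0.721%), against 0.134% of the list, and 3 (0.135%) were at small nuclear RNA genes made by RNA polymerase II, against 0.0355%. Within 1 kb of an end of a protein-coding gene lay 623 regions at no such small RNA gene (28.1%, interval 26.2 to 30.0%), against 17.4% of the list. This share was 28.0% among shared regions with PR and 10.4% among PR-free regions of P4 alone, so the regions found under both treatments had similar shares here with or without PR. In the bodies of protein-coding genes lay 629 (28.3%), against 39.5% of the list, and 47.5% of the PR-free regions of P4 alone. At no annotated gene lay 570 (25.7%), against 32.0% of the list and 35.4% of the shared regions with PR. The bar plot of classes shows the tRNA bar of the PR-free shared regions above those of both comparison groups, with intervals that do not overlap.

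**Figure D2:**
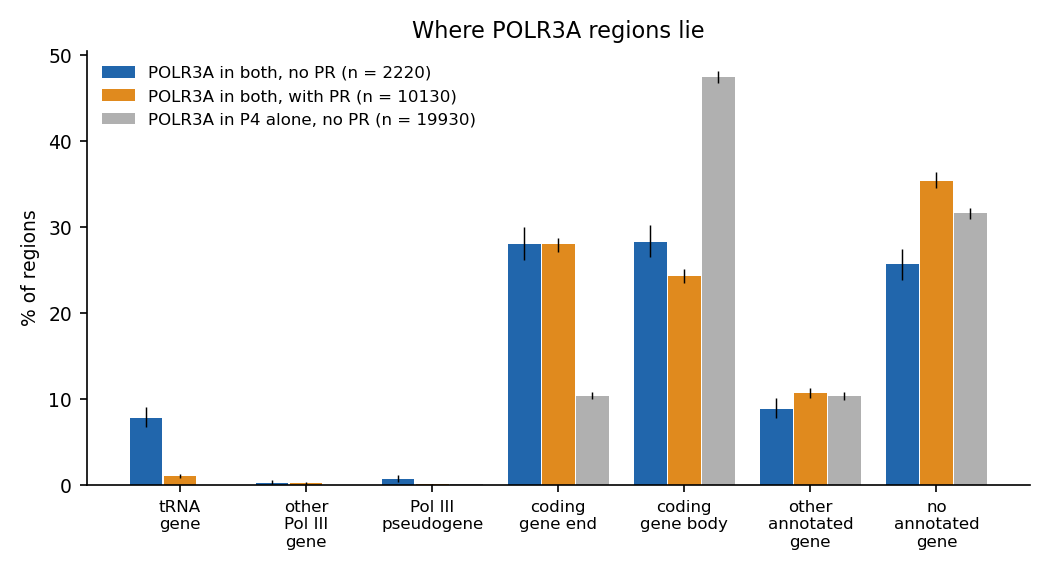
Share of regions in each class of position (y axis, % of regions) for the 2220 PR-free shared regions (blue), the 10130 shared regions that overlap PR (orange) and the 19930 PR-free regions of P4 alone (grey). Lines are 95% Wilson intervals, which cover counting error only. At tRNA genes the blue bar stands at 7.88%, the orange at 1.07% and the grey at 0.0552%.

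Class of position followed strength. Of the 1599 PR-free shared regions with a −log10 q under 5, 6 (0.375%) were at a tRNA, 5S or listed Pol III gene, and of the 347 from 5 to 10, 3 (0.865%) were. Among the 179 from 10 to 100, 82 were (45.8%, interval 38.7 to 53.1%), and among the 95 at 100 or more, 90 were (94.7%, interval 88.3 to 97.7%). Among shared regions with PR, such genes were at 5 of 1825 (0.274%) from 10 to 100 and at 131 of 168 (78.0%) at 100 or more. With the SNAR genes, small Pol III genes that are not on the list, counted as well, the shares were 8 of 1825 (0.438%) and 144 of 168 (85.7%, interval 79.6 to 90.2%), against 82 of 179 (45.8%) and 91 of 95 (95.8%, interval 89.7 to 98.4%) without PR. In the class from 10 to 100, 1295 of those 1825 regions were at no annotated gene, against 30 of the 179 PR-free ones. Over all classes, regions with PR at no annotated gene had a median −log10 q of 6.75 and a median of 3.28-fold. Those at coding gene ends had 4.31 and 3.59-fold. Some PR-free regions at no annotated gene lay in runs, as on chromosome 11. Whether regions at no annotated gene lie in repeated sequence, where reads can have several matches, was not tested. The contrast is thus one between listed regions. Seen from the tRNA side, 80 of the 84 shared tRNA regions from 10 to 100 were PR-free (95.2%, interval 88.4 to 98.1%), and 86 of the 188 at 100 or more (45.7%, interval 38.8 to 52.9%). Of the shared regions at no tRNA gene, 23.1% were PR-free under 5, 10.9% from 5 to 10, 5.16% from 10 to 100 and 12.0% (9 of 75) at 100 or more. Wider regions have more bases with which to overlap PR, and the shared tRNA regions had a median width of 400.5 bp from 10 to 100 and 767 bp at 100 or more. With PR sought only within 250 bp of each summit, a setting chosen after the data had been seen, the PR-free shares were 92.9% (78 of 84) and 51.1% (96 of 188). The stacked bars by −log10 q show blue for tRNA genes taking over the bar at 10 and above among the PR-free regions, and only at 100 or more among those with PR.

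**Figure D3:**
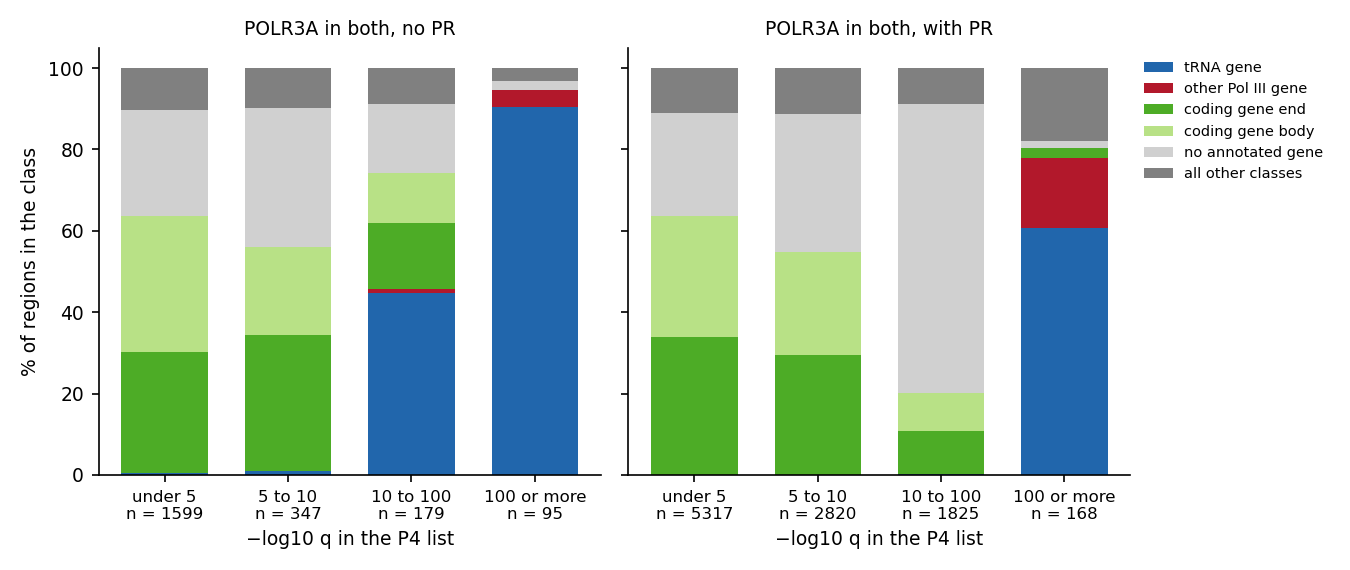
Make-up of shared POLR3A regions by −log10 q in the P4 list (x axis, 4 classes with the number of regions) as % of regions in the class (y axis), for regions without PR (left) and with PR (right). In the class from 10 to 100, Pol III genes make up 45.8% of the left bar and 0.274% of the right bar, where regions at no annotated gene make up most. The class named all other holds pseudogenes, small nuclear RNA genes and other annotated genes.

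Of 429 nuclear tRNA genes, 187 had a PR-free shared region within 100 bp (43.6%, interval 39.0 to 48.3%), and 152 had a shared region that overlapped PR; no gene had both. The 187 genes lay in 175 regions, of which 164 held 1 gene, 10 held 2 and 1 held 3. Of the 152 genes in shared regions with PR, 119 had PR within 100 bp of the gene itself, and at the other 33 the PR region touched the POLR3A region farther out. The −log10 q at the 187 genes ran from 2.21 to 584 in the P4 list, with quartiles of 29.5, 106 and 318, and its median in the vehicle list was 108. At the 152 genes with PR the P4 quartiles were 445, 515 and 543. Median fold was 21.7 and 62.3, in that order. The ranges overlapped, but the middle of the PR-free genes lay lower. The summit lay within 50 bp of the gene's midpoint at 166 of the 187 PR-free genes (88.8%) and at 104 of the 152 with PR (68.4%). It lay over 500 bp away at 6 and at 34, and regions with several tRNA genes, which have 1 summit each in this count, numbered 11 of 175 and 33 of 108. The cumulative curves of −log10 q at tRNA genes show the PR-free genes spread over the whole scale and those with PR gathered near the top.

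**Figure D4:**
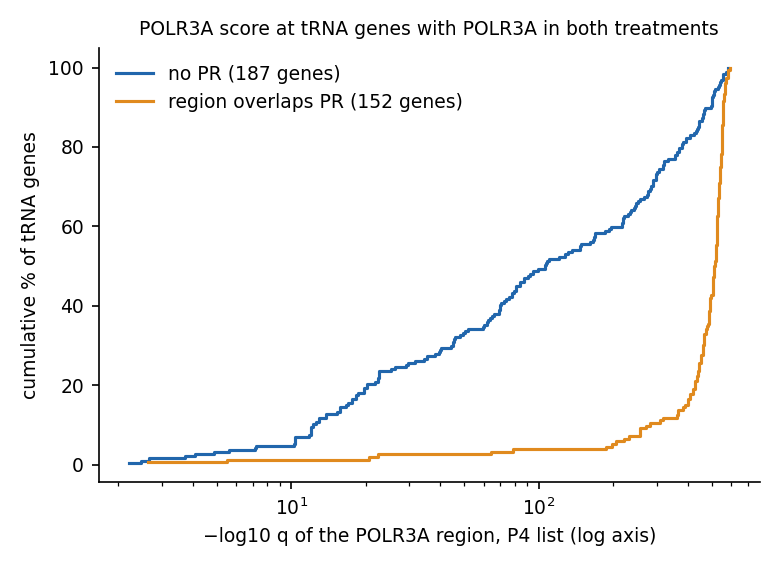
Cumulative share of tRNA genes (y axis, %) by the −log10 q of their POLR3A region in the P4 list (x axis, log axis), for the 187 genes without PR (blue) and the 152 whose region overlaps PR (orange). The blue curve passes its middle at 106 and the orange curve at 515.

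The 2 groups of tRNA genes also differed in where they lie, which the rule did not use. The PR-free genes were a median of 24335 bp from the nearest end of a protein-coding gene, and 14 of 187 (7.49%) were within 1 kb of one. The genes with PR were a median of 6570 bp away, and 39 of 152 (25.7%) were within 1 kb. On chromosome 6 lay 90 of the 187 PR-free genes and 32 of the 152 with PR, and the groups also differed in −log10 q. Distances within a chromosome or at like strength were not compared. Neighbouring tRNA genes were common in both: 134 (71.7%) and 102 (67.1%) had another within 10 kb, so genes of a group are not independent of each other. The nearest PR region was a median of 6149 bp from a PR-free tRNA gene, and 34 of the 187 had one within 1 kb.

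Over all tRNA genes with a shared region, 187 of 339 were PR-free (55.2%, interval 49.8 to 60.4%). By amino acid this share ran widely. Of the 16 cysteine genes with a shared region 13 were PR-free (81.2%), of the 8 initiator methionine genes 6 (75.0%), of the 25 glycine genes 18 (72.0%), of the 10 elongator methionine genes 7 (70.0%) and of the 19 proline genes 13 (68.4%). At the other end stood aspartate with 1 of 8 (12.5%) and tryptophan with 2 of 6 (33.3%), and the 1 selenocysteine gene with a shared region overlapped PR. Alanine, with 37 genes the largest family, had 17 PR-free and 11 with PR. These families are small and were not tested, so their order is a description. The bars of tRNA genes by amino acid give the 4 states for each family.

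**Figure D5:**
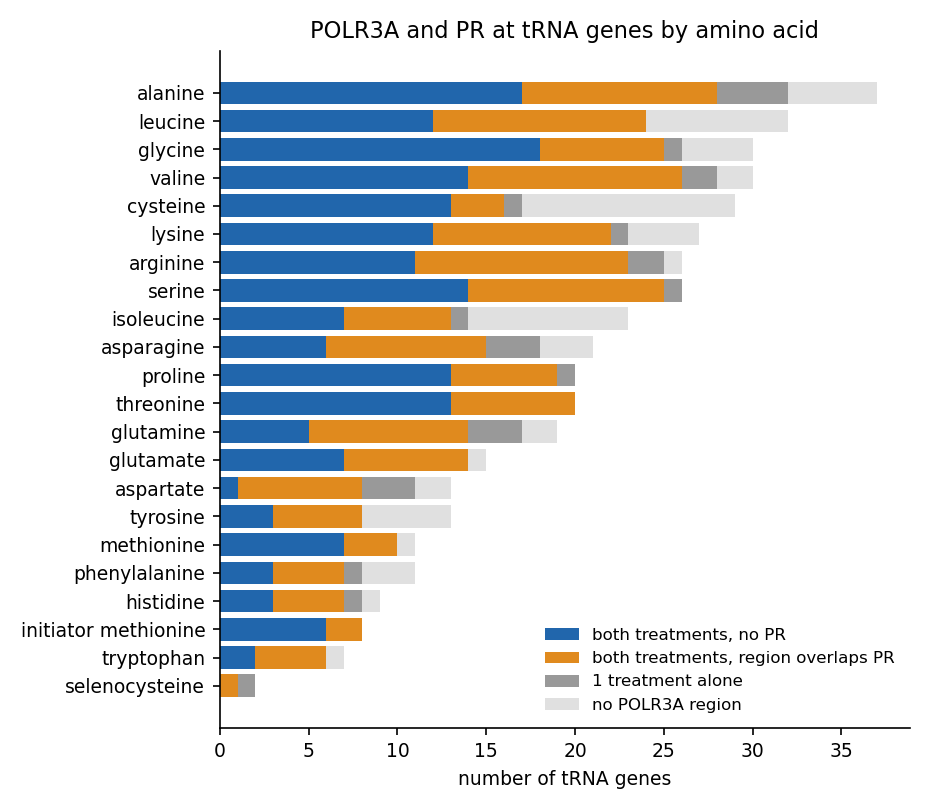
Number of tRNA genes (x axis) by amino acid (y axis), split into genes with a POLR3A region in both treatments and no PR (blue), in both treatments with a region that overlaps PR (orange), in 1 treatment alone (dark grey) and with no POLR3A region (light grey). Cysteine has 13 blue and 3 orange genes, and aspartate 1 and 7.

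The cysteine family, all with the anticodon GCA, shows how wide the values ran within 1 family. It had 12 of 29 genes with no POLR3A region in either list. Its 13 PR-free genes had a median −log10 q of 19.7, from 10.3 at TRC-GCA13-1 and TRC-GCA23-1 to 445 at TRC-GCA2-2. The latter lies on chromosome 17, as does TRC-GCA14-1, which had 17.0. TRC-GCA9-4, on chromosome 7, had 108 after P4 and 112 under vehicle.

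Initiator methionine tRNA starts every protein chain. Its 6 PR-free genes, all on chromosome 6, had −log10 q values after P4 and under vehicle of 584 and 525 (TRX-CAT1-7), 507 and 555 (TRX-CAT1-2), 467 and 525 (TRX-CAT1-3), and 456 and 467 (TRX-CAT1-4). TRX-CAT1-6 had 267 and 285, and TRX-CAT1-5 had 69.5 and 42.7. The region of TRX-CAT1-7 also holds the glycine gene TRG-GCC2-3. Its P4 summit lay 419.5 bp from the midpoint of TRX-CAT1-7 and 5 bp from that of TRG-GCC2-3. Its value thus cannot be credited to the initiator gene alone. With that value included, the median of the 6 was 462, the highest of any family among the PR-free genes. Of the 6 genes, 5 were above 250 in both lists. The other 2 initiator genes, TRX-CAT1-1 on chromosome 1 and TRX-CAT1-8 on chromosome 17, had 553 and 475 in regions that overlap PR.

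All 10 PR-free shared regions with the highest −log10 q after P4 held tRNA genes. First was chr6:27902282-27903329, with TRX-CAT1-7 and the glycine gene TRG-GCC2-3, at 82.7-fold after P4 and 64.5-fold under vehicle. Next came chrX:18674613-18675559, with the valine gene TRV-TAC1-2, in or within 1 kb of PPEF1, a protein phosphatase gene, at 81.6-fold and 77.4-fold. The glutamate gene TRE-CTC1-7, beside NCOA7, which encodes a nuclear receptor coactivator, lay in chr6:125780057-125780626, at 79.8-fold and 94.1-fold. These regions rank at the top of the P4 list, and their folds lie near the upper end of both lists. At chr19:4723804-4725001, beside DPP9, a dipeptidyl peptidase gene, the glycine gene TRG-TCC1-1 and the valine gene TRV-CAC3-1 share a region of 79.8-fold and 77.2-fold, whose summits in the 2 lists were 545 bp apart. The glycine gene TRG-CCC2-1 lies beside TIA1, which encodes an RNA-binding protein, in chr2:70248697-70249265, at 73.5-fold and 94.1-fold. TRL-TAA1-1 (leucine, chr6:144216255-144216905) had 78.0-fold and 77.9-fold, and TRT-TGT6-1, whose sequence is given above, had 68.1-fold and 80.5-fold in chr5:181191202-181191992. Isoleucine, arginine and leucine genes complete these 10. TRI-TAT2-1 (chr2:42810301-42810996) had 76.7-fold and 82.2-fold, TRR-CCG1-2 (chr6:28881165-28881692) 71.8-fold and 85.5-fold, and TRL-AAG2-4, at the start of POLR3E (chr16:22296720-22297811), 56.3-fold and 98.9-fold. None of these pairs has a replicate check. The distance to PR among the 10 ran from 33 bp at TRR-CCG1-2 to 24473 bp at TRV-TAC1-2.

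The 5 weakest tRNA regions were close to the threshold of the lists. They were at the serine gene TRS-AGA3-1 (−log10 q of 2.21 after P4 and 5.96 under vehicle), the histidine gene TRH-GTG1-4 (2.47 and 2.76), the proline gene TRP-CGG1-2 (2.66 and 4.89) and 2 alanine genes named TRNAA-AGC on chromosome 6 (3.74 and 5.96 at chr6:26705303-26705785, and 4.10 and 3.74 at chr6:26796111-26796379). At TRP-CGG1-2 the region lies within 1 kb of a tRNA pseudogene as well, and its summits in the 2 lists were 150 bp apart.

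Chromosome 6 carries the main tRNA gene cluster of the human genome, beside histone genes. It had 154 of the 429 tRNA genes (35.9%), 122 of the 339 with a shared region (36.0%) and 90 of the 187 PR-free ones (48.1%), in 88 of the 175 regions. Of its tRNA genes with a shared region 73.8% were PR-free, against 44.7% of those on the other chromosomes. Between 26 and 29 Mb, a window chosen after the values were seen, lay 100 PR-free shared regions (4.50% of all), of which 86 were at tRNA genes, among 165 shared POLR3A regions there. The tRNA regions of that stretch had a median −log10 q of 158 and the other regions 11.2. The 3 bins of 100 kb with most members all hold tRNA genes: chr1:161400001-161500000 (11 regions, 9 at tRNA genes), chr6:28700001-28800000 (11, all at tRNA genes) and chr6:26300001-26400000 (10, 8 at tRNA genes). Of the 1675 bins with members but none at a tRNA gene, 1411 held 1 member and 6 held 5 or more, the fullest being chr1:145300001-145400000 with 8. The median distance to the nearest other member was 122542 bp. Of all shared POLR3A regions, the PR-free share was 32.4% on chromosome 22, 30.0% on chromosome 2 and 3.38% (9 of 266) on chromosome 13.

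Over all shared POLR3A regions the PR-free share was 18.0% (2220 of 12350), and over those at a −log10 q of 100 or more 36.1% (95 of 263). Of these 263, the 188 at tRNA genes had 45.7% and the 75 at no tRNA gene 12.0% (interval 6.44 to 21.3%). Of 20 other listed Pol III genes, 3 had a PR-free shared region and 16 a shared region with PR, and VTRNA2-1 had none. Thus 15.8% of the 19 were PR-free (interval 5.52 to 37.6%), and most of the 19 had a −log10 q of 100 or more. RNU6-1 (chr15:67839939-67840045), a gene of the U6 spliceosomal RNA with an upstream promoter, had a −log10 q of 418 after P4 and 425 under vehicle, at 46.1-fold after P4. BCYRN1 (chr2:47335315-47335514), the gene of the cytoplasmic BC200 RNA, had 72.8 and 57.3, at 17.9-fold. RNY4 (chr7:148963315-148963410), a Y RNA gene, had 28.1 and 16.0, at 9.86-fold. RNU6-1 lay above the upper quartile of the PR-free tRNA genes and RNY4 below the lower one.

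All 17 genes of the 5S ribosomal RNA array on chromosome 1 had a shared region, and 3 of these were PR-free (17.6%, interval 6.19 to 41.0%). The share was 18.0% over all shared regions. It was 36.1% (interval 30.6 to 42.1%) over those at a −log10 q of 100 or more after P4, where all 17 lay. Among those at no tRNA gene, which include the 5S regions, it was 12.0% (9 of 75, interval 6.44 to 21.3%). RNA5S16 had a −log10 q of 192 after P4 and 214 under vehicle, RNA5S15 171 and 187, and RNA5S9 140.5 and 175. The other 14 genes, whose regions overlap PR, ran from 262 to 309 after P4, so the PR-free copies were the 3 lowest of the array. These genes are near-identical repeats, so which copy the reads came from is uncertain.

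Among 2908 pseudogenes of Pol III genes, 17 had a PR-free shared region, 11 a shared region with PR and 2843 no POLR3A region of the P4 list. Of the 28 with a shared region 60.7% were PR-free (interval 42.4 to 76.4%), against 18.0% of all shared regions. By family the PR-free ones were 5 of 87 tRNA pseudogenes, 4 of 292 for 7SK, 4 of 504 for 5S, 3 of 681 for 7SL and 1 of 1269 for U6, and none of 75 for Y RNA. Only these 5 of the 87 tRNA pseudogenes had a shared region. A pseudogene with both kinds of shared region was counted as PR-free alone, so these counts do not show that the 5 lack one with PR. The strongest was TRS-ACT1-1, a serine tRNA pseudogene in the gene table, with a −log10 q of 190.3 after P4 and 133 under vehicle. RN7SL5P, a 7SL pseudogene inside PTPRD, a phosphatase gene, had 113 and 151. TRP-AGG6-1 had 83.8 and 101, in the same region as the arginine gene TRR-CCT3-1, so its signal cannot be told apart from that gene's. RN7SL4P had 51.1 and 78.7, and the 5S pseudogene RNA5SP202 46.0 and 45.1. The remaining 12 ran from 1.38 (RN7SKP193) to 42.1 (TRQ-CTG9-1) after P4.

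Genes of the Pol III machinery were taken as a list of 36 coding genes, from the subunits and TFIIIB, TFIIIC and SNAPc to the repressor MAF1. Within 1 kb of an end, 5 of them (13.9%) had a PR-free shared region, against 3.83% of all 19821 protein-coding genes, and 8 had a shared region with PR, against 14.0% of all. A gene of the list with both kinds was counted as PR-free alone. Of the 13 genes with a shared region 38.5% were PR-free (interval 17.7 to 64.5%), against 18.0% of all shared regions. POLR3E stood apart, at 512 after P4 and 625 under vehicle, and its region holds the tRNA gene TRL-AAG2-4 printed above, so the 2 cannot be told apart. GTF3C5, a TFIIIC subunit, was weak, with 6.75 and 5.68, as were POLR3D, a Pol III subunit, with 5.63 and 11.8, and GTF3C4, another TFIIIC subunit, with 4.45 and 2.95. The POLR3D region also reaches the microRNA gene MIR320A. A further 9 genes had a region of P4 alone, 6 of them without PR, POLR3A itself among these with a −log10 q of 2.91, and the other 14 had no region of the P4 list, 7 of which had one under vehicle alone.

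Small nuclear RNA genes made by RNA polymerase II share upstream promoter elements with U6. Of 19 listed, 3 had a PR-free shared region and 15 a shared region with PR. Thus 16.7% of the 18 were PR-free (interval 5.84 to 39.2%), against 18.0% of all shared regions, which were mostly weaker. The PR-free ones were the U5 genes RNU5E-1 (15.7 after P4 and 12.6 under vehicle) and RNU5D-1 (15.7 and 17.5), and RNU7-1 (4.95 and 2.93), which encodes the U7 RNA of histone message processing. The genes with PR ran from 10.3 (RNU4ATAC) to 201 (RNU1-27P) after P4. Of 1190 small nucleolar RNA genes 3 had a PR-free shared region and 23 a shared region with PR (11.5% of the 26 PR-free). The strongest PR-free ones were SNORD3D (85.7 and 101.5) and SNORD3C (30.1 and 46.5), genes of the U3 RNA of ribosome assembly. Of 1911 microRNA genes, 2 had a PR-free shared region, MIR320A and MIR1914 (2.38 and 4.61), and 44 a shared region with PR (4.35% of the 46 PR-free).

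Over 1 kb from every tRNA, 5S and listed Pol III gene and their pseudogenes lay 2016 PR-free shared regions, those at SNAR genes among them, with a median of 3.34-fold and a median −log10 q of 3.31. Of these, 433 reached a −log10 q of 5 and 90 reached 10. The 90 comprised 29 at coding gene ends, 22 in coding gene bodies, 31 at no annotated gene, 6 at other annotated genes and 2 at small nuclear RNA genes. The strongest was chrX:47802478-47802967, within 1 kb of the pseudogene WASF4P, at 66.4-fold after P4 and 72.0-fold under vehicle (−log10 q of 441 and 420), and a PR region lies 91 bp away. It was stronger than most tRNA regions, with no listed Pol III gene at it. The region at SNAR-A3, a Pol III gene off that list, in a repeat array (chr19:47923583-47924052), had 33.8-fold and 36.3-fold. At chr1:160925796-160926196, with no gene within 1 kb, the values were 21.3-fold and 23.7-fold, and the summits were 1 bp apart. SNORD3D (chr17:19111995-19112602) had 18.1-fold and 23.0-fold. The last 2 by the naming rule were chr22:37193737-37194096, in the body of C1QTNF6, at 17.7-fold and 13.5-fold, and chr9:123268677-123269073, at the start of STRBP, at 15.4-fold and 11.2-fold. In all 6, the P4 and vehicle summits were at most 38 bp apart, closer than the 86 bp that was the median away from tRNA genes.

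At coding gene starts, taken from the RefSeq promoter table with its strand (chromosome 8 not used), the PR-free shared regions resembled the shared regions with PR. Of 1959 regions at no tRNA gene, 521 were within 1 kb of a start (26.6%, interval 24.7 to 28.6%), and 143 had the summit within 100 bp of it. The share was 24.7% for shared regions with PR, 14.5% for the whole list and 7.52% for PR-free regions of P4 alone. Members reached 483 of 34961 promoter windows (432 genes), each from 250 bases before to 50 after a start. These windows were rich in G and C, with a median of 65.3% against 58.7% over all windows and 62.3% over windows reached by shared regions with PR, and held a median of 28 CpG against 14 and 24.

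Motifs were searched on both strands, and a match is a description of letters. The GC box GGGCGG, read by Sp1-type factors, was in 70.0% of the 483 windows, 45.0% of all windows and 63.0% of those reached by shared regions with PR. The ETS core CCGGAAGT was in 11.2%, 4.14% and 13.4%, and the TATA box TATAAA in 7.66%, 11.5% and 7.08%. ACANNNTGT, the core of the element that steroid receptors such as PR bind, was in 2.90%, 5.36% and 2.44%. Windows reached by shared POLR3A regions without and with PR thus held it at similar shares. Whether PR overlapped the windows themselves was not counted. Base composition differs between these sets, and its part in the motif shares was not tested. The B box core GTTCNANNC was in 8 of the 12 reached windows that hold a tRNA gene and in 8.28% of the other 471, against 7.46% of all windows. The A box core TNGCNNAGT was in 4 of the 12 and in 10.2% of the 471, against 8.57% of all. Away from tRNA genes the reached windows thus held the tRNA promoter letters about as often as any window. The POLR3E window above has a match to the A box core, at bases 100 to 108, outside its tRNA gene.

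Lack of PR refers to the region itself. The nearest PR region of either list was a median of 814 bp away (quartiles 294 and 4127 bp), 1199 of the 2220 (54.0%) had PR within 1 kb, and 181 (8.15%) within 100 bp. At tRNA genes the distances were longer, with a median of 6459 bp and 39 of 175 (22.3%) within 1 kb, and at the others a median of 720 bp and 1160 of 2045 (56.7%). Just inside the rule lay chr16:68310966-68311383, at SLC7A6OS and PRMT7 (−log10 q of 4.95), and chr19:49453589-49454012, at ALDH16A1 (3.74), each of which adjoins a PR region with no base between, with chr16:88760385-88760575 in PIEZO1 (3.37) next. Just outside it lay chr3:197033613-197033830 (5.99) and chr5:81850492-81850905 (4.95), which overlap PR by 1 bp, and chr10:87096378-87096648 in SHLD2 (2.58), by 2 bp. On the side of the vehicle list, chr2:234578711-234578912 (2.21), chr7:2687587-2687817 in AMZ1 (2.35) and chr9:136841491-136841956 at RABL6 and AJM1 (2.21) entered on an overlap of 1 bp. The members named here at both edges are weak ones, and none of them is at a tRNA gene. Strong members also lie close to PR. Of the 175 tRNA regions, 6 had PR within 100 bp, among them TRR-CCG1-2, at 33 bp with a −log10 q of 516 after P4.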

How the data were processed

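Chromatin immunoprecipitation with sequencing had been run on T47D cells with antibodies against POLR3A and PR. Per the submitters' processing notes, cutadapt, Bowtie2 and MACS2 were used with the build hg38; versions, options, the control, the pooling of replicates and the handling of reads with several matches are not given in the sources used here. The deposited lists hold for each region a fold enrichment (a ratio), −log10 p and −log10 q values and a whole-number score, all made by the authors. The −log10 q and the fold were used here, and the score was not. The highest q-value of any region was 0.0497. The lists hold no read counts, so the depth is unknown, and libraries of different depth would give lists of different length and other q-values. No column of values per sample other than those of the 4 lists was used (0 such columns).

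Overlaps of at least 1 bp were computed in Python 3.11.15 (numpy 2.4.6, pandas 2.3.3, scipy 1.17.1, matplotlib 3.10.9), tested on simulated intervals and checked with bedtools 2.31.1, which gave the same 2220 regions. Regions on chromosome Y and on unplaced sequences were left out. Genes came from a RefSeq table of GRCh38.p14 (58419 genes on chromosomes 1 to 22 and X), which gives no strand, exons or introns, so distances to coding genes are to either end, and overlapping genes cannot be told apart. A region was put in the first class that applied, in the order tRNA, other Pol III, pseudogene, small nuclear RNA, coding end (1 kb), coding body, other and none, with 100 bp around small RNA genes. The promoter table holds no window on chromosome 8 and none for tRNA genes. A planned search for the terminator TTTT was not run. The naming rule took the 10 strongest members, the 6 strongest away from Pol III genes, the 5 weakest tRNA regions, 3 at each edge of the rule, the 3 fullest bins of 100 kb and up to 10 genes per list. The members, lists and rules were chosen with earlier results of these data known. Alternatives were stricter q-values, a reciprocal overlap of 50%, PR within 1 kb, rows of the vehicle list, lists of equal length and other windows around genes. A member of the list of Pol III machinery genes is counted but not reported here by name.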

Additional observations from a re-analysis of the deposited data

Results flagged for a closer look

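Outside chromosomes 1 to 22 and X, which the comparisons did not use, 44 POLR3A P4 regions met the same rule, of 790 listed there and 565 found under both treatments. They lay on 20 sequences, with a median −log10 q of 4.32 and a highest of 20.25. The count is above the 3 that a count of 0 allows, but a count of 0 was not predicted there, so this is only a description. On chromosomes 1 to 22 and X, 2220 of 12350 regions found under both treatments met the rule. No list from a control antibody was used to set the count against.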

How the results depend on the processing

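Read with the lists at a −log10 q of at least 5 or 10, the regions numbered 830 and 514, the share at Pol III genes rose from 8.15% to 27.5% and 52.3%, and the share within 1 kb of a coding gene end (28.7% with tRNA regions included) was 31.5% and 24.1%. Fewer PR regions pass these limits, so a region can become PR-free, and the tRNA genes numbered 281 at 10. A reciprocal overlap of 50% with vehicle left 1381 regions, 12.3% at Pol III genes and 25.9% at coding ends. With no PR allowed within 1 kb there were 1021 regions, 13.6% and 17.1%. With every list cut to the 29161 strongest regions, the length of the shortest, there were 4572, 5.67% and 36.6%; there the PR P4 list loses most regions. Within 5 kb of a coding end lay 43.6%. Under the other settings the 187 tRNA genes became 144 (no PR within 1 kb) to 267 (equal length), within 1.5 times. Taking rows of the vehicle list gave 2211 regions, and PR judged within 250 bp of the summit, added after the data had been seen, gave 2149. Leaving out a replicate could not be done, because replicates share a list. No paired analysis was possible because the lists carry no value per replicate. Without read counts, a region missing from a PR list may be under its detection limit.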

Other observations

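The SNAR genes, small RNA genes in arrays on chromosome 19 made by Pol III, were taken as a list after their values had been seen. Of 28, 4 had a PR-free shared region, 16 a shared region with PR (4 of 20 PR-free, against 2220 of all 12350 shared regions, or 18.0%) and 8 no region of the P4 list, of which 2 had one under vehicle alone. SNAR-A3 had a −log10 q of 314 after P4 and 367 under vehicle, SNAR-G2 9.53 and 24.0, SNAR-E 6.34 and 8.37, and SNAR-G1 3.17 and 15.5. SNAR-A1, in the same array as SNAR-A3, had 364 and 399 in a region that overlaps PR. The copies are alike in sequence, so the values of single copies are uncertain.

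In 2 members, picked after their values were seen, the vehicle fold was over 5 times the P4 fold. At chr6:52994822-52995211, beside RN7SK, the gene of the 7SK RNA that restrains transcription elongation, the P4 fold was 3.65 and the vehicle fold 94.1. The vehicle region there, 1175 bp wide, overlaps 2 P4 regions, and the stronger one, with 82.1-fold, covers RN7SK and overlaps PR. At chr17:19111470-19111856, beside SNORD3D, the P4 fold was 2.42 and the vehicle fold 23.0, and the vehicle region of 1262 bp again overlaps 2 P4 regions, of which the stronger has 18.1-fold. In both, the vehicle value is that of 1 region that overlaps 2 regions of the P4 list without covering both in full.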
